A study of Mus musculus with 3 samples.

Results

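Immature neutrophils that carry RNA of the specific granules were described in 3 single-cell RNA libraries. The tissue was skull bone (calvaria) of C57BL/6 mice that were 8 weeks old. Cells were chosen by 9 genes. S100a8 and S100a9, abundant in all later neutrophils, had to reach together at least 300 UMIs (unique molecular identifiers, counted RNA molecules) per 10000 UMIs of the cell, written CP10K. Ngp and Camp had to reach together at least 50 CP10K. Mki67 and Top2a, genes of dividing cells, could have at most 1 UMI in all. Elane, Mpo and Prtn3, genes of promyelocytes, had to stay below 20 CP10K. A barcode was kept as a cell if 500 genes or more were detected and mitochondrial UMIs made up no more than 10%. Of 23831 such cells, 7448 met these conditions. They were 3029 of 6577 cells in the control library, 3178 of 8151 in the scratch-negative library and 1241 of 9103 in the scratch-positive library.

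The control calvaria came from mice without tumour. For the scratch-negative library, HNM007 cells, the head and neck squamous cell carcinoma (HNSCC) model of the study, were placed onto unbroken bone, a stage labelled pre-invasive. For the scratch-positive library the bone was first scratched with a 21-gauge needle, which strips the periosteum, and the stage is labelled invasive. Both were taken 1 week after implantation with the tumour cut away, and each of the 3 libraries mixed equal parts of live cells with and without the leukocyte marker CD45. Each group is 1 library, the number of mice behind it is not given in the sources used here, and scratched bone without tumour was not analysed here. No difference between libraries therefore has a replicate check or a test, and all intervals below are 95% exact intervals that cover counting error only. Scratching, loss of periosteum and invasion cannot be told apart.

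Neutrophils form their granules in sequence as they mature in the marrow. Promyelocytes load the azurophil granules with myeloperoxidase and elastase. Myelocytes and metamyelocytes then fill the specific granules with lactoferrin, cathelicidin and lipocalin 2 under the transcription factor C/EBP-epsilon, and the gelatinase granules with Mmp8 and Mmp9 follow. Receptors such as Cxcr2, which binds the chemokines that draw neutrophils into blood and tissue, come last.

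The 4 marker genes of the class are Camp (ENSMUSG00000038357), which encodes the antimicrobial peptide cathelicidin, Ngp (ENSMUSG00000032484), which encodes neutrophilic granule protein, Ltf (ENSMUSG00000032496), which encodes the iron-binding protein lactoferrin, and Lcn2 (ENSMUSG00000026822), which encodes lipocalin 2, a binder of bacterial siderophores. In GRCm38, the assembly that mm10 names, Camp lies at chr9:109847379-109849617 on the minus strand, Ngp at chr9:110419747-110423012 on the plus strand and Ltf at chr9:111019271-111042767 on the plus strand. These 3 genes fall within 1195389 bases of chromosome 9. Lcn2 lies at chr2:32384633-32388252 on the minus strand. The bases upstream of the annotated starts of the chromosome 9 genes are shown because Ltf stood higher in the members richest in Ngp and Camp. The sequences are from RefSeq (GRCm38.p6), 5′ to 3′ on the strand of the gene, and the capitals mark matches to the C/EBP consensus TTNNGNAAT.
Camp: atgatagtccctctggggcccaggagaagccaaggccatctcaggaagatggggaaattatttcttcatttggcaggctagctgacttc
Ngp: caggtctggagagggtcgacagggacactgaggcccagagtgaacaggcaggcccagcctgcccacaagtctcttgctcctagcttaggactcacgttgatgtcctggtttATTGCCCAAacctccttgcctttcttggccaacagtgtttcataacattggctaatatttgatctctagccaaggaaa
Ltf: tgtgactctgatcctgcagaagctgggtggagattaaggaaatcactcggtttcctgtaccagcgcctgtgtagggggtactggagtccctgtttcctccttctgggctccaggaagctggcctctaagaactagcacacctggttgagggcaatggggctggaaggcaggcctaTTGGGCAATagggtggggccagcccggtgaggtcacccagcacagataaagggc

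The 3 stretches cover chr9:109849618-109849706 (Camp), chr9:110419558-110419746 (Ngp) and chr9:111019042-111019270 (Ltf). In the 250 bases before the RefSeq start, Ngp had 1 match, on the minus strand from 139 to 131 bases before the start, and Ltf had 1 match, on the plus strand from 75 to 67 bases before it. Camp and Lcn2 had no match in that window. Part of each window lies inside the gene as annotated by GENCODE. Only 89 of the 250 bases are upstream of that annotation for Camp, 189 for Ngp and 229 for Ltf. For Lcn2 too few are upstream to print, so its window describes mostly bases inside the annotated gene. The ETS/PU.1 core AGGAAGT, searched on both strands as well, had 0 matches in the 4 windows. Of 32851 RefSeq promoter windows of this length, 10.2% held the C/EBP consensus and 7.69% the ETS/PU.1 core. A match describes the letters and does not show a bound site.

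The members carried the marker genes that the choice did not use. Ltf stood at 6465 CPM (UMIs per 1000000 UMIs of the summed members) in control, 5215 in scratch-negative and 4277 in scratch-positive, and at 56.2, 37.3 and 17.4 CPM in the cells with S100a8+S100a9 under 300 CP10K of the same libraries. The median member held 62.8, 51.8 and 47.1 CP10K of Ltf, with quartiles of 30.7 and 87.5 in control. Lcn2 stood at 13881, 17376 and 18336 CPM in the members against 149, 200 and 86.4 CPM in those other cells. All 4 markers of the label, 2 of which chose the cells, were thus high in the summed members of each library. RNA of other cell types in the members is given below. The 7 azurophil and promyelocyte genes outside the choice summed to 808, 943 and 1137 CPM in the members and to 1052, 1731 and 1512 CPM in the other cells. Within that list Serpinb1a stood at 410.2, 493 and 515 CPM in the members, whereas Ctsg (cathepsin G) stood at 4.50, 5.76 and 1.81 CPM against 549, 404 and 14.3 CPM in the other cells. RNA of the list was thus present in the members, with large differences between its genes.

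The summed members held 30242231 UMIs in control, 37652489 in scratch-negative and 13848480 in scratch-positive, and the median member held 8913, 10182 and 8164 UMIs. The class is a range cut by thresholds and not a separate type. At the Ngp+Camp threshold, 69, 70 and 26 members lay between 50 and 60 CP10K, and 101, 107 and 19 cells just outside lay between 40 and 50. Ltf stood at 246, 281 and 482 CPM just inside and at 138, 168 and 451 CPM just outside. At the S100a8+S100a9 threshold, 6, 10 and 75 members lay between 300 and 400 CP10K. Outside it, 2, 16 and 70 cells that met the other conditions lay between 200 and 300. The 75 scratch-positive members had a median of 892 UMIs. The osteoclast marker Ctsk stood there at 4607 CPM, the carcinoma marker Krt8 at 876 and Mmp8 at 109. Just outside these stood at 2538, 1685 and 135 CPM. Libraries shared few cell barcodes: 16 between control and scratch-negative, 24 between control and scratch-positive and 30 between the tumour libraries.

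A group of members with little S100a8 and S100a9 set the scratch-positive library apart. Members under 2000 CP10K of S100a8+S100a9 were 89 (2.94%) in control, 163 (5.13%) in scratch-negative and 217 (17.5%) in scratch-positive. They held 1.55%, 6.87% and 34.0% of the summed UMIs of the members. The limit of 2000 CP10K was set after these values had been seen.

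**Figure D1:**
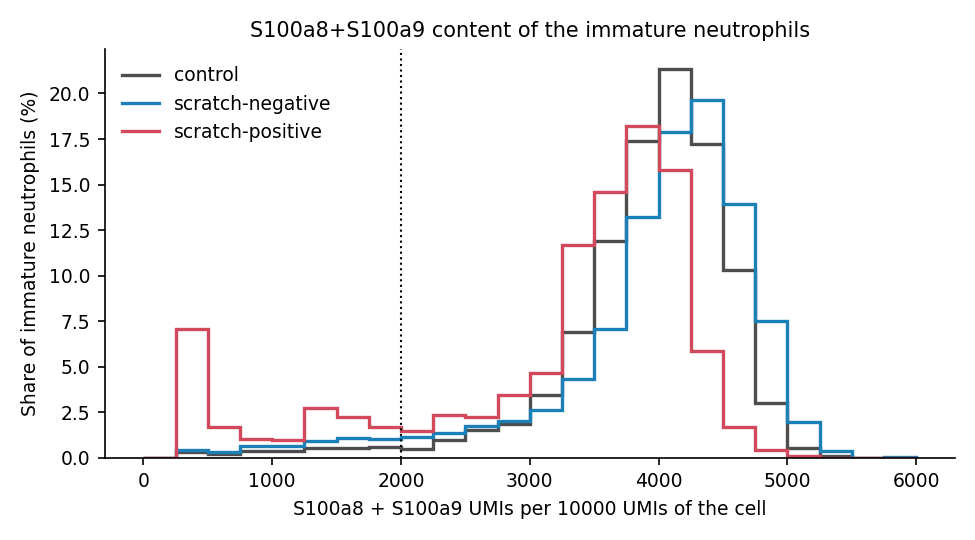
Distribution of S100a8+S100a9 (UMIs per 10000 UMIs of the cell, x axis) over the immature neutrophils of each library (percent of members, y axis); the dotted line marks 2000. The members of all 3 libraries form 1 main peak above the line, and 217 of 1241 scratch-positive members lie below 2000, against 89 of 3029 in control.

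RNA of other cell types moved with that group. In scratch-positive the 6 osteoclast markers (Ctsk, Acp5 and others, all with UMIs) summed to 1141 CPM in all members, 3202 CPM in the members under 2000 CP10K and 80.5 CPM in the remaining members. In scratch-negative these sums were 108, 1437 and 10.6 CPM, and in control, where Oscar was at 0, 16.7, 879 and 3.16 CPM. The 9 carcinoma markers, among them Krt8 and Krt18, summed to 5.26, 10.7 and 219 CPM over all members and to 5.17, 7.16 and 61.5 CPM over the remaining members. Krt8 and Krt18 were at 0 in control, where 2 of the 9 markers had UMIs, and Krt5 was at 0 in all 3 libraries.

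The 7 fibroblast markers, collagens and matrix genes such as Col1a1 and Dcn, all had UMIs and summed to 273, 2342 and 1075 CPM over all members and 106, 493 and 90.1 CPM over the remaining ones. The 9 monocyte and macrophage markers, such as Csf1r and C1qa, all had UMIs and summed to 87.8, 268 and 840.4 CPM over all members and 75.2, 189.5 and 229 CPM over the remaining ones. B lineage markers (6 of 6 with UMIs) summed to 4.33 to 19.4 CPM over the libraries, T and NK markers (7 of 7) to 24.4 to 38.6 CPM, and those of eosinophils, basophils and mast cells (1 to 3 of 6) to 0.0661 to 2.53 CPM. Erythroid markers (7 of 7) summed to 45.6, 26.9 and 369 CPM, and to 41.2, 24 and 544 CPM over the remaining members. In scratch-positive 1 cell held 97.6% to 99.2% of the UMIs of each of the globin genes Hba-a1, Hba-a2, Hbb-bs and Hbb-bt. Monocyte and macrophage, T and NK and erythroid markers stood higher in all scratch-positive members than in its cells with S100a8+S100a9 under 300 CP10K. Those cells had 302, 7.43 and 61.9 CPM, and the other lists stood lower in members. In members under 2000 CP10K the osteoclast markers were also higher than in those cells (3202 against 2059 CPM). So were fibroblast markers (2989 against 2320), whereas erythroid markers were lower. Scrublet scores likely doublets, and one alternative removed the barcodes of highest score. Among these were 25.8%, 9.20% and 25.8% of the members under 2000 CP10K in control, scratch-negative and scratch-positive. Of the remaining members they were 5.03%, 4.54% and 0.195%. The part of doublets and of RNA from other cells in the values below was not tested further. Members with at least 2000 CP10K are called S100-rich, and their values are given beside or in place of those of all members, as stated with each result.

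The share of immature neutrophils among all kept cells was 46.1% (44.8 to 47.3) in control, 39.0% (37.9 to 40.1) in scratch-negative and 13.6% (12.9 to 14.4) in scratch-positive. This share depends on the mixing of cells by CD45 before loading. Among cells with S100a8+S100a9 of at least 300 CP10K the share was 57.4% (3029 of 5276, 56.1 to 58.8) in control, 50.2% (3178 of 6325, 49.0 to 51.5) in scratch-negative and 44.5% (1241 of 2786, 42.7 to 46.4) in scratch-positive. The 3 intervals did not overlap. Among cells of at least 2000 CP10K the shares were 60.4%, 55.8% and 56.6%. The order of the tumour libraries turned, and their intervals (54.4 to 57.1 and 54.3 to 58.9) overlapped. With every cell thinned to 2000 UMIs, which left out 285, 262 and 402 kept cells with fewer, the shares were 68.5%, 66.0% and 63.6%. The intervals were 67.20 to 69.8, 64.8 to 67.20 and 61.7 to 65.5, so those of the tumour libraries overlapped here too. The control share was the highest in each of these settings.

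**Figure D2:**
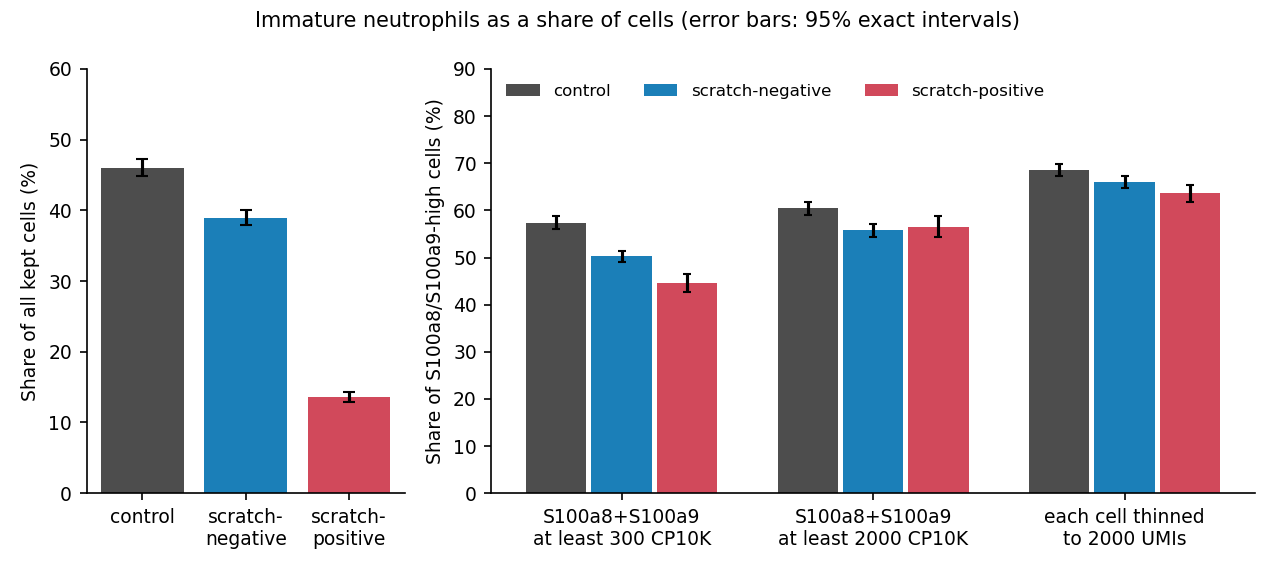
Share of immature neutrophils in each library, with 95% exact intervals as error bars: of all kept cells (left) and of S100a8/S100a9-high cells (right) under the main rule, with at least 2000 CP10K of S100a8+S100a9, and with cells thinned to 2000 UMIs. The control share is the highest in each set (57.4%, 60.4% and 68.5% on the right).

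The other S100a8/S100a9-high cells were sorted with the same genes. Cells with Ngp+Camp under 50 CP10K, called Ngp/Camp-low neutrophils, were 17.8% in each of the 3 libraries (941, 1127 and 495 cells). The median cell of this class held 1370, 1362 and 447 CP10K of S100a8 in control, scratch-negative and scratch-positive. Its Retnlg was 287, 140 and 26.5 CP10K. The part of other cell types in this class was not tested. Cells with at least 2 UMIs of Mki67 and Top2a, called cycling precursors, were 20.7%, 24.3% and 29.7% (1092, 1538 and 827 cells). The count of 2 UMIs depends on depth, and with all cells thinned to 2000 UMIs the cycling shares were 10.1%, 10.04% and 12.1%. Cells with Elane, Mpo and Prtn3 at or above 20 CP10K were 18, 55 and 8.

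Within the class, cells ran from a low to a high end of Ngp+Camp. Members over 400 CP10K were 2057, 2158 and 818 cells, or 67.9%, 67.9% and 65.9% of the members in control, scratch-negative and scratch-positive. Of the S100-rich members they were 69.5%, 70.4% and 76.7%. The members from 50 to 100 CP10K were 248, 241 and 117 cells, of which 222, 203 and 45 were S100-rich. The values by position that follow are a description, since Ngp and Camp place the cells.

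Ltf, Chil3 and Cebpe stood higher at the high end, whereas other genes of the specific granule list varied. In S100-rich members Ltf stood at 252 CPM from 50 to 100 CP10K and at 7557 over 400 in control, at 298 and 6268 in scratch-negative, and at 403 and 6098 in scratch-positive. Chil3, which encodes a chitinase-like secreted protein, stood at 230.0 and 3619.9 CPM, 225 and 3515, and 233 and 4325. Cebpe, the transcription factor of specific granule genes, stood at 32.6 and 185, 23.5 and 211, and 9.15 and 223 CPM. Its 9.15 CPM rests on few UMIs: all 117 scratch-positive members of that bin held 11, and 45 of these members were S100-rich. Ltf, Chil3 and Cebpe were lowest in the lowest bin and highest in the highest bin of each library. For the same bins and libraries, Olfm4 stood at 127 and 218, 94.9 and 115, and 206 and 100 CPM. Hp stood at 1551 and 1478, 2037 and 2120, and 2082 and 2901 CPM. Cd177 stood at 554 and 732, 655 and 736, and 686 and 681 CPM. Olfm4 and Cd177 in scratch-positive and Hp in control were thus not higher over 400 CP10K.

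Lcn2 stood higher at the high end too, but its level at any given position differed between libraries. From 50 to 100 CP10K it stood at 5691 CPM in S100-rich members of control, 9492 in scratch-negative and 12070.1 in scratch-positive. Over 400 CP10K it stood at 15539, 20067 and 25708 CPM. The order control, scratch-negative, scratch-positive held in each of the 4 bins of the S100-rich members. Over all members it held only in the 2 highest bins, since scratch-positive stood at 4400.1 CPM from 50 to 100 CP10K and at 7235 CPM from 100 to 200.

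Genes of later stages stood higher at the low end of the S100-rich members. Retnlg, which encodes a resistin-like secreted protein, stood at 44452 CPM from 50 to 100 CP10K and 10485 over 400 in S100-rich members of control, at 38495 and 8445 in scratch-negative, and at 37949 and 8429 in scratch-positive. Cxcr2 stood at 541 and 131 CPM, 578 and 158, and 512 and 148. Il1b, the cytokine interleukin 1 beta, stood at 2178 and 371 CPM, 2798 and 735, and 3738 and 1309. Over all scratch-positive members this did not hold: from the lowest to the highest bin Cxcr2 stood at 132, 159, 204 and 142 CPM, and Retnlg at 8799, 11552, 11650.2 and 7983 CPM. Il1b stood at 1829, 2471, 4269 and 1614 CPM there, so all 3 genes were highest from 200 to 400 CP10K. Mmp8, the neutrophil collagenase, differed in shape: in control it stood at 3179 CPM in the lowest bin, 3675 from 200 to 400 CP10K and 1829 over 400. In scratch-negative it stood at 2571, 2329 and 1083 CPM in those bins and in scratch-positive at 2741, 2657 and 890.0 CPM, below control in each, all among S100-rich members.

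**Figure D3:**
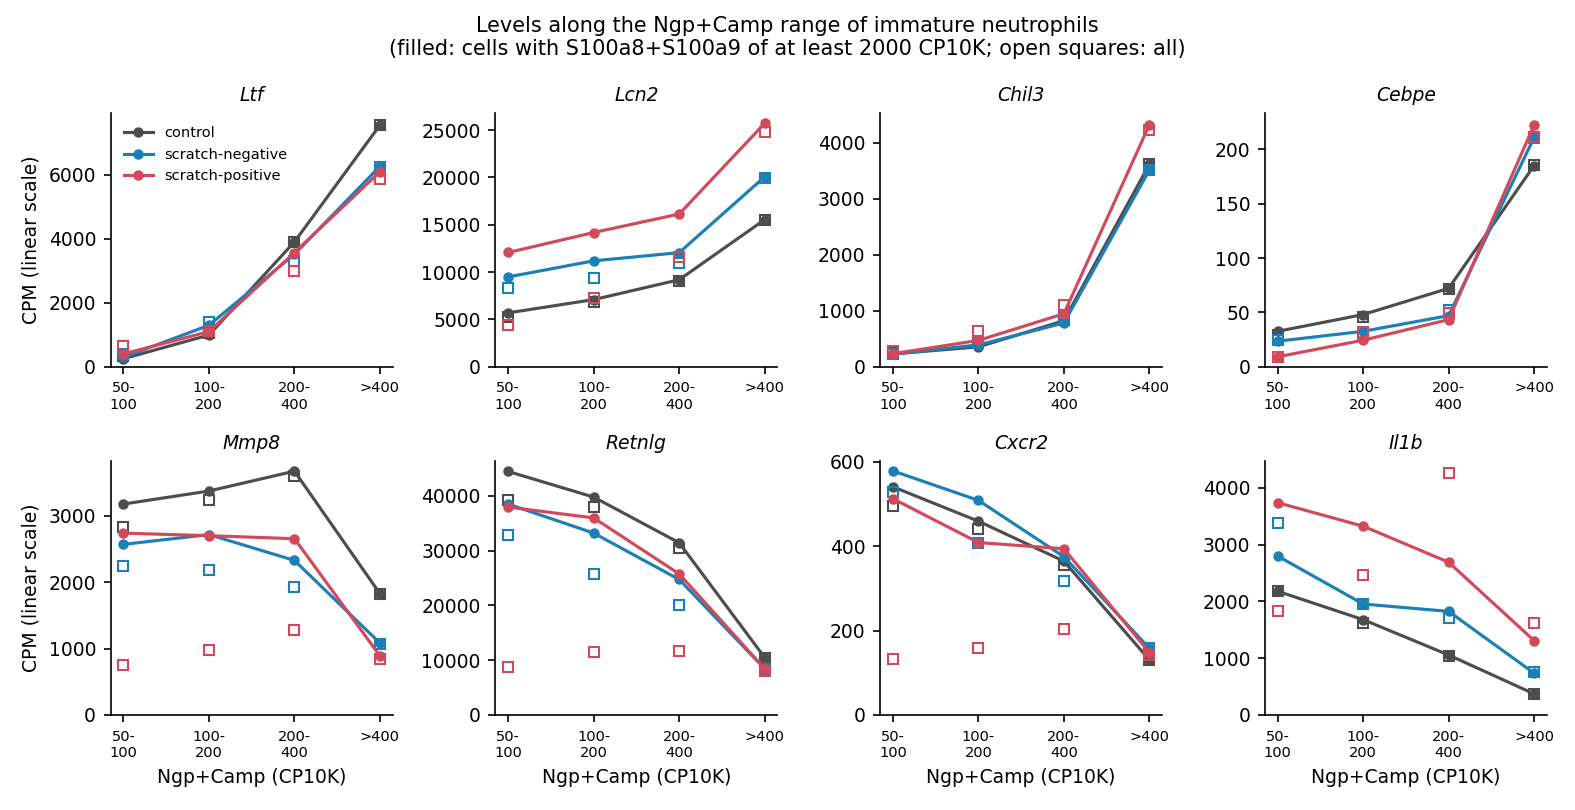
Levels (CPM, linear scale) of 8 genes in bins of Ngp+Camp (CP10K, x axis) for each library; filled points joined by lines are members with at least 2000 CP10K of S100a8+S100a9 and open squares are all members. Among the filled points Ltf, Lcn2, Chil3 and Cebpe are highest over 400 CP10K, and Retnlg, Cxcr2 and Il1b from 50 to 100 CP10K; the open squares of scratch-positive lie below its filled points for Mmp8, Retnlg and Cxcr2.

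The class was set beside the neutrophils with Ngp+Camp under 50 CP10K of the same libraries. Since the choice of cells made this contrast, the values describe the chosen cells and carry no test. The fit (edgeR, 9 sums of 3 classes with library as a block) covered 13208 genes without the 9 genes of the choice. At an adjusted p below 0.05 and at least 2-fold it counted 566 genes higher in immature neutrophils (4.29% of the genes) and 658 lower (4.98%). Among S100-rich cells it counted 1141 and 967, and without the scratch-negative library 199 and 125. The lists and named genes of the class comparisons below are for all cells of the classes. Their log2 differences and medians are fitted values with the scaling of the fit (TMM). The CPM values beside them do not carry this scaling, so the differences in CPM can be smaller or larger. In scratch-positive the Ngp/Camp-low cells held less S100a8 and Retnlg than in the other libraries, as given above.

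Of the specific granule list, 9 of 11 tested genes were in the higher count and 0 in the lower, with a median log2 difference of 2.4 against -0.05 over all genes. Ltf led, at 6465 against 128 CPM in control, 5215 against 116 in scratch-negative and 4277 against 99.99 in scratch-positive (fitted log2 difference 5.87, SE 0.16). The other leading genes included Serpinb1a, an inhibitor of neutrophil serine proteases (4.09, SE 0.22), and Cebpe (3.72, SE 0.21). Lta4h, the enzyme that makes leukotriene B4 (3.59, SE 0.22), and Cybb, the membrane subunit of the NADPH oxidase (2.86, SE 0.16), stood higher in all 3 libraries as well. Ldhc, the testis form of lactate dehydrogenase, stood at 116, 109 and 106 CPM against 4.19, 3.90 and 2.44 (5.30, SE 0.21). The 12 highest also held Chil3, Krt81, Zmpste24, Gca, Golim4 and Itgb2l, between 2.53 and 4.25.

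Inflammatory, interferon and receptor genes stood lower in immature neutrophils than in the Ngp/Camp-low cells. The lower count held 16 of 19 inflammatory myeloid genes (median -1.88), 14 of 20 interferon genes (median -1.63) and 9 of 14 surface receptors (median -1.15), and the higher count 0 of each. Cxcl2, a chemokine of neutrophils, stood at 135 against 1000.2 CPM in control, 1470.3 against 11152 in scratch-negative and 2790.4 against 17442 in scratch-positive. Wfdc17, a small protein of the whey acidic protein family, stood at 25 against 267, 207 against 2745 and 262 against 2205 CPM. Ccl6, another chemokine, stood at 184 against 2397, 139 against 1279 and 132 against 751 CPM. Each of these genes was lower in immature neutrophils in all 3 libraries, and so were Ifitm1, H2-Q10, Jaml, Pla2g7, Csf1, Tspan13, Cxcl3, Ccl4 and Il1a among the 12 lowest.

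Against cycling precursors, the contrast set by Mki67 and Top2a, the same fit counted 1137 genes higher in immature neutrophils (8.61%) and 1931 lower (14.6%). Without the scratch-negative library it counted 781 and 800.0, and without the library block 119 and 467. All 22 cell cycle genes outside the choice were in the lower count, with a median of -3.39. Ube2c, which marks cyclins for destruction in mitosis, stood at 5.39, 8.76 and 26.1 CPM against 475, 555 and 624. The 12 lowest were 5 replication histone genes (Hist1h3c, Hist1h2ab, Hist1h1b, Hist1h2ae and Hist1h2ap) with Nusap1, Ube2c, Pclaf, Prc1, Smc2, Cenpf and Tpx2. The gelatinase list was in the higher count with 9 of 10 genes (median 1.71) and the receptor list with 12 of 14 (median 1.52). Of the azurophil list 4 of 7 genes were in the lower count (median -1.09).

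Mmp8 led the higher genes, at 2141 against 271 CPM in control, 1332 against 224 in scratch-negative and 933 against 149 in scratch-positive (3.08, SE 0.13). Retnlg followed at 2.99 (SE 0.21) and Mmp9, gelatinase B, at 2.53 (SE 0.17). The specific granule list was less apart, with 3 of 11 genes in the higher count and a fitted median of 0.81. Its medians in plain CPM were 0.25, 0.36 and 0.71 in control, scratch-negative and scratch-positive. Ceacam10, Cxcr2, Slc7a11, Osm, Thbs1, Prr13, Slfn4, Slfn1 and Ypel3 made up the rest of the 12 highest, between 1.92 and 2.34.

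**Figure D4:**
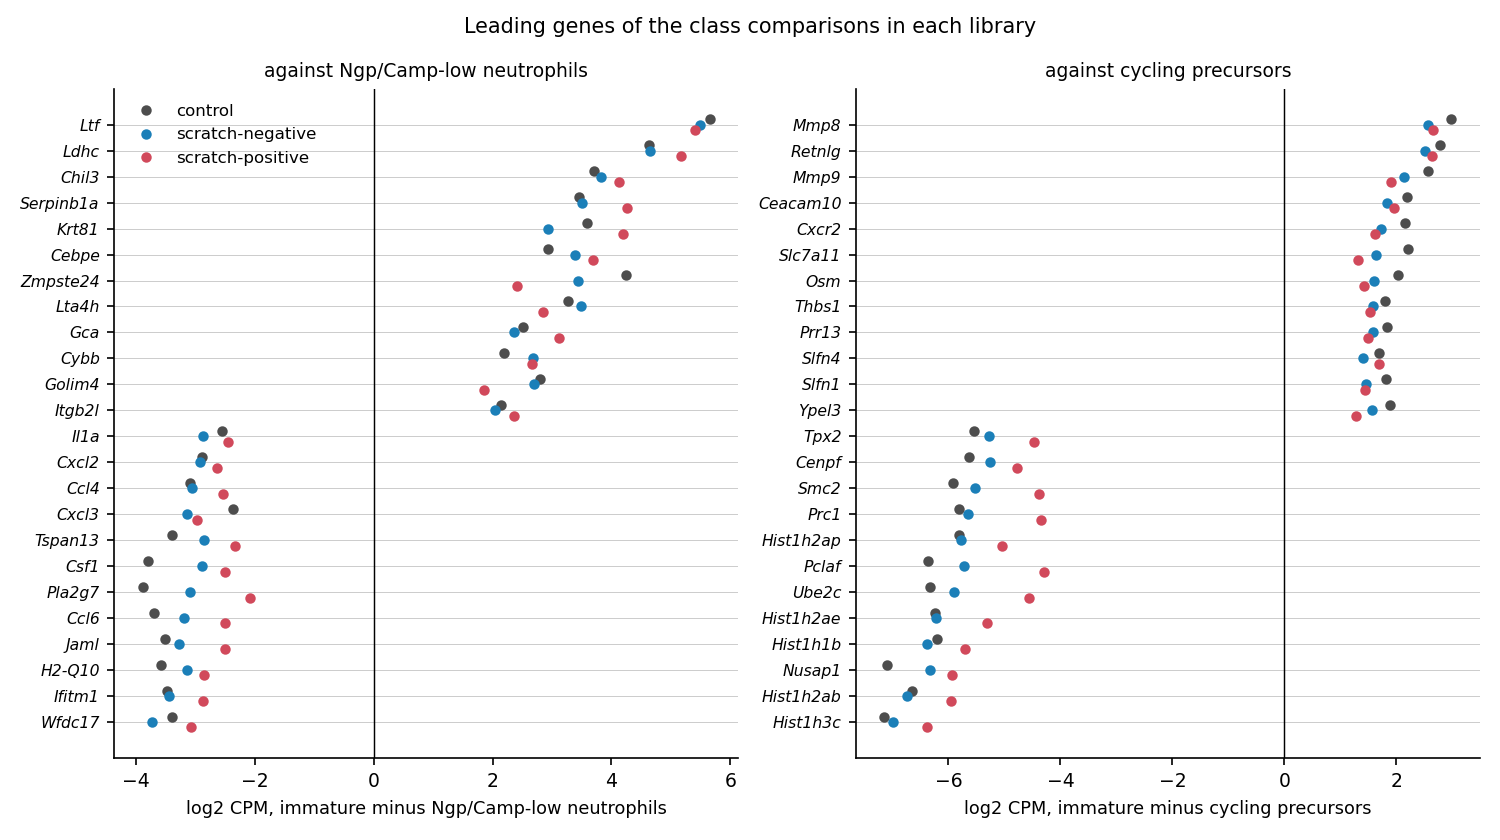
Difference in log2 CPM between immature neutrophils and the 2 neighbouring classes (x axis) for the 12 highest and 12 lowest genes of each fit, 1 point per library. The 3 libraries lie on the same side of 0 for every gene shown, which the rule for naming genes required.

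The comparison of scratch-negative with control asks how these cells differ when a tumour lies on intact bone. A gene was counted as past the fold at a ratio of at least 1.5, with at least 50 UMIs in the pair. Of 10081 genes, 1998 were higher in scratch-negative (19.8%) and 429 lower (4.26%), with a median log2 ratio of 0.07. Among S100-rich members 1051 of 9443 were higher (11.1%) and 496 lower (5.25%), with a median of -0.04.

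The specific granule genes stood close to their level in control. Of 11 measured outside the choice, 0 were past the fold upward and 1 downward (median log2 ratio -0.04). That gene was Olfm4, a granule protein of a subset of neutrophils, at 209 CPM in control, 109 in scratch-negative and 78.9 in scratch-positive (1.91-fold and 2.65-fold lower than control). Among S100-rich members it stood at 211, 114 and 104 CPM. Lcn2 was 1.25-fold higher in scratch-negative (1.25 to 1.26) and 1.29-fold among S100-rich members. Hp, haptoglobin, stood at 1451, 1961 and 2132 CPM, 1.35-fold higher in scratch-negative (1.34 to 1.37). Both stayed under the fold.

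Inflammatory myeloid genes were past the fold upward in 14 of 19 and downward in 0, with a median log2 ratio of 1.26 (13 of 19 and 1.07 among S100-rich members). Cxcl2 stood at 135 CPM in control, 1470.3 in scratch-negative and 2790.4 in scratch-positive. Scratch-negative was 10.9-fold higher than control (10.6 to 11.3), and 9.81-fold among S100-rich members. Ccl4, a chemokine of monocytes and T cells, stood at 19.8, 420.3 and 683 CPM, 21.2-fold higher in scratch-negative (19.6 to 23.1). Cxcl3 stood at 2.71, 110 and 242 CPM, 40.5-fold higher on 82 against 4137 UMIs (32.6 to 51.1). Ccl3 was 11-fold higher, Wfdc17 8.30-fold and Il1b 1.84-fold. Among S100-rich members Ccl4 was 20.1-fold higher, Cxcl3 34.4-fold, Ccl3 9.94-fold, Wfdc17 8.59-fold and Il1b 1.74-fold. All of these were lowest in control and highest in scratch-positive.

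The level of these genes also differed at a fixed position in the range. Over 400 CP10K of Ngp+Camp, Cxcl2 stood at 96.3, 1024 and 1671 CPM in the S100-rich members of the 3 libraries, and Wfdc17 at 17.5, 121 and 122. From 50 to 100 CP10K Wfdc17 stood at 80.7, 592 and 1126 CPM. Most cells held few of these UMIs: the median member held 0 CP10K of Cxcl2 in each library, with upper quartiles of 0, 2.29 and 10.2.

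Interferon response genes were past the fold upward in 17 of 20 in scratch-negative and downward in 0, with a median of 1.67 (17 of 20 and 1.34 among S100-rich members). Ifitm1, a membrane protein that limits viral entry, stood at 40.4, 329 and 517 CPM, 8.16-fold higher in scratch-negative (7.69 to 8.66) and 7.78-fold among S100-rich members. Gbp2, a GTPase induced by interferon gamma, stood at 4.56, 86.8 and 81.8 CPM. Isg15, a ubiquitin-like modifier, stood at 60.6, 173 and 114 CPM, and Rsad2, the antiviral enzyme viperin, at 24, 59.9 and 27.7 CPM. Among S100-rich members Gbp2 was 14.5-fold, Isg15 2.55-fold and Rsad2 2.37-fold higher in scratch-negative than in control. Ifitm1 was highest in scratch-positive, whereas Isg15 and Rsad2 were highest in scratch-negative.

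The remaining genes named by rank in scratch-negative included the antigen presentation genes H2-Ab1 (33.4 against 171 CPM) and Cd74 (71.5 against 334), and Cxcl10, a chemokine of T cells (13.8 against 128). Among S100-rich members the ratios of H2-Ab1, Cd74 and Cxcl10 were 4.98, 4.50 and 6.63. A minority of members held these UMIs. H2-Ab1 had UMIs in 82 of 3029 members in control and in 385 of 3178 in scratch-negative. Cd74 had UMIs in 176 and 488 of them, and Cxcl10 in 87 and 368. Igkc, the kappa light chain of antibodies, was 28.5-fold higher over all members and stood at 11.2 against 11.1 CPM among S100-rich members. In scratch-negative 96.3% of its UMIs lay in 1 cell. The genes of lowest ratio were Cebpz, a CCAAT-binding factor (271 against 136 CPM, 1.99-fold lower), Olfm4, Vps37b, a subunit of the ESCRT machinery (1.87-fold), Trf, transferrin (1.85-fold), Cwc25, Bmx, a kinase of the Tec family (1.73-fold), Sbno1, Lars2, Krt81 and St3gal5. All 10 remained past the fold downward among S100-rich members.

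Genes of the endoplasmic reticulum and secretion were past the fold upward in 11 of 14 in scratch-negative (median 0.76) and in 7 of 14 among S100-rich members (median 0.59). Manf, which protects against stress of that organelle, stood at 21.7, 61.6 and 163 CPM in the 3 libraries, and at 20.2, 46.7 and 79.3 CPM among S100-rich members. Pdia6, a folding enzyme, stood at 20.1, 66.6 and 157 CPM, and at 18.8, 50.7 and 83.0 CPM among S100-rich members. The 14 genes summed to 1324, 2081 and 3455 CPM over all members, and to 1291, 1823 and 2341 CPM over S100-rich members. In the cells with S100a8+S100a9 under 300 CP10K they summed to 5132, 7480 and 6945 CPM. The part of RNA from those cells was not tested. Of 14 surface receptors 3 were past the fold upward and 0 downward, a share near the 19.8% of all genes past the fold upward. The 3 receptors were Cd14, the coreceptor for lipopolysaccharide (507, 875 and 1135 CPM), Csf2rb, the shared chain of the GM-CSF and IL-3 receptors (59.9, 118 and 116), and Tlr4 (7.74, 17.9 and 19.2). Among S100-rich members they were 1.74-fold, 1.98-fold and 2.32-fold higher than in control.

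The gelatinase granule list had 1 of 10 genes past the fold downward, Mmp8, and 0 upward (median -0.28). Mmp8 stood at 2141, 1332 and 933 CPM, 1.61-fold lower in scratch-negative than in control (1.59 to 1.63) and 1.55-fold lower among S100-rich members. Retnlg stood at 15509, 12384 and 9192 CPM. Among S100-rich members these levels were 2156, 1387 and 1188 CPM for Mmp8 and 15601, 12979 and 12108 CPM for Retnlg.

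Scratch-positive was compared with both other libraries, which asks how the cells differ where the periosteum is missing and the tumour invades. The 2 comparisons share the scratch-positive library. Of 9752 genes 4346 were higher than in control (44.6%) and 1126 lower (11.5%), with a median log2 ratio of 0.44. Against scratch-negative 3923 of 10303 were higher (38.1%) and 598 lower (5.8%), with a median of 0.34. With the median ratio set to 0 the counts were 3177 and 2658 against control, and 2678 and 1728 against scratch-negative. Among S100-rich members 1491 of 8531 genes were higher than in control (17.5%) and 1448 lower (17.0%), and 762 of 8953 were higher than in scratch-negative (8.51%) and 682 lower (7.62%), with medians of -0.05 and 0.00. The values that follow are for S100-rich members first, since their median lies near 0.

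Specific granule genes were past the fold in 3 of 11 upward and 1 downward against control, with a median of 0.26. They were Lcn2 (14031, 18168 and 23920.5 CPM in control, scratch-negative and scratch-positive), Hp (1461, 2048 and 2809 CPM) and Orm1, orosomucoid (88.9, 105 and 136 CPM). Lcn2 was 1.70-fold higher than in control (1.70 to 1.71), and 1.32-fold higher (1.31 to 1.33) over all members, which with the median of all genes at 0.44 is a log2 ratio of -0.04 relative to it. Hp was 1.92-fold higher (1.89 to 1.95). Ltf stood at 6528, 5427 and 5480.0 CPM, and Camp and Ngp, which chose the cells, at 34343, 35867 and 41127, and at 39096, 36828 and 39233 CPM. Olfm4 was the gene past the fold downward. Over all members 0 were past the fold upward and 2 downward, Olfm4 and Ltf (median -0.12). Ltf was thus below the fold among S100-rich members and past it, 1.51-fold lower, over all members.

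Inflammatory myeloid genes were past the fold upward in 12 of 18 against control (median 1.76) and in 9 of 19 against scratch-negative, with 1 downward (median 0.54). Over all members the counts were 14 of 19 (median 2.28), and 10 of 19 with 1 downward (median 0.70). Il1a, interleukin 1 alpha, stood at 0.705, 15.6 and 52.0 CPM, 3.33-fold higher than in scratch-negative (2.94 to 3.77). Il1b stood at 585, 1016 and 1595 CPM, and Nfkbia, the inhibitor of NF-kappa-B, at 148, 310.0 and 477 CPM. Cxcl2, Ccl3, Ccl4 and Cxcl3 were 1.67-fold to 1.73-fold higher than in scratch-negative. The gene past the fold downward was Saa3, a serum amyloid, at 0.336, 4.85 and 1.53 CPM.

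Interferon genes split. Against control 9 of 19 were past the fold upward and 0 downward (median 0.48), and against scratch-negative 2 of 20 upward and 10 downward (median -0.60). The 2 upward were Ifitm1 (39.1, 304 and 481 CPM) and Ifitm2 (473, 1139 and 1733 CPM). Isg15 stood at 59.4, 151 and 82.9 CPM, 1.83-fold lower than in scratch-negative, and Ifit1, a sensor of foreign RNA ends, at 6.82, 22.9 and 6.23 CPM, 3.68-fold lower. Ifit2 stood at 3.36, 11.7 and 2.63 CPM, and Rsad2 at 22.6, 53.6 and 19.3 CPM. Ifitm3, which was not past the fold against scratch-negative, stood at 969, 1759.6 and 2094 CPM. The Ifitm genes were thus highest in scratch-positive, and Isg15, Ifit1, Ifit2 and Rsad2 in scratch-negative. Over all members 1 of 20 was past the fold upward against scratch-negative, Ifitm1, and 7 downward (median -0.32).

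**Figure D5:**
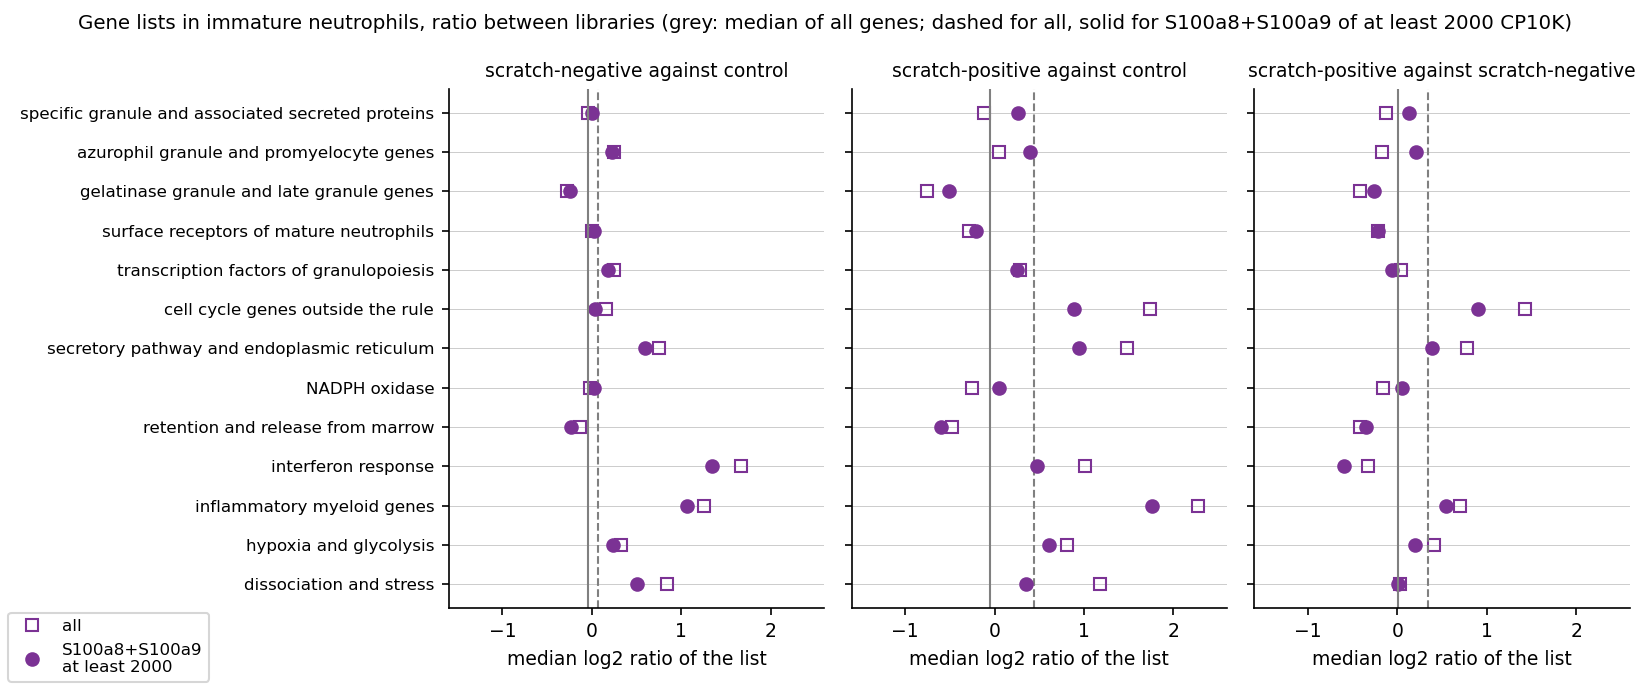
Median log2 ratio (x axis) of 13 gene lists in immature neutrophils for the 3 pairs of libraries; open squares are all members, filled points members with at least 2000 CP10K of S100a8+S100a9, and the vertical lines the medians of all genes (dashed and solid). Interferon genes lie at 1.67 for scratch-negative against control and at -0.32 for scratch-positive against scratch-negative (open squares).

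Cell cycle genes outside the choice were past the fold upward against control in 15 of 22 and downward in 1, Pcna (median 0.89), and against scratch-negative in 15 of 22 with 0 downward (median 0.90). Over all members it was 19 of 22 in both, with medians of 1.73 and 1.43. Ube2c stood at 5.0, 7.73 and 22.6 CPM, and Tubb5, a beta tubulin, at 12.8, 19.3 and 51.5 CPM. Ube2c and Tubb5 stood at 604 and 1048 CPM in the scratch-positive cells with S100a8+S100a9 under 300 CP10K, and the part of RNA from those cells was not tested. Members could hold 1 UMI of Mki67 or Top2a. In control 299 of 3029 did, in scratch-negative 332 of 3178 and in scratch-positive 191 of 1241.

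Gelatinase granule genes were past the fold downward in 4 of 10 against control and upward in 0 (median -0.51), and in 7 of 10 over all members (median -0.76). Against scratch-negative 1 of 10 was, Mmp25, at 50.9, 45.6 and 29.1 CPM. The 4 were Mmp8 (1.81-fold lower), Mmp25, Adam8 and Slc11a1. Adam8, a membrane protease, stood at 362, 288 and 237 CPM. The list summed to 20987, 16631 and 12410 CPM over all members of control, scratch-negative and scratch-positive. Over S100-rich members it summed to 21110, 17362 and 15845 CPM. Endoplasmic reticulum genes were past the fold upward in 12 of 14 against control (median 0.94) and in 5 of 14 against scratch-negative (median 0.38), and over all members in 13 and 10. The 5 against scratch-negative were Ssr4, Pdia6, Spcs2, Krtcap2 and Manf. Cells with S100a8+S100a9 under 300 CP10K held more RNA of this list, as given above, and their part was not tested.

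Among all members the highest ratios of scratch-positive to control belonged largely to genes of macrophages and osteoclasts. Arg1, arginase, had 0 UMIs in control and 1680 in scratch-positive and was at least 1223-fold higher against a floor of 3 UMIs. Those 1680 UMIs lay in 106 of 1241 members. Ctsk, the collagen-degrading protease of osteoclasts, stood at 5.03, 58.2 and 633 CPM, and at 1.04, 6.07 and 47.8 CPM among S100-rich members. Acp5, tartrate-resistant acid phosphatase, stood at 9.79, 41.7 and 423 CPM, and at 1.91, 3.54 and 27.1 CPM. C1qa and C1qb, complement genes of macrophages, were past the fold against scratch-negative over all members (3.92-fold and 3.87-fold) but not among S100-rich members (1.12-fold and 1.25-fold). S100a10 was 6.55-fold higher than in scratch-negative over all members and 1.99-fold among S100-rich members. The other names against control were Pf4, Ccl2, Cxcl3 and Ccl4, and those against scratch-negative S100a4, Clec4n, Ndufab1 and Tomm20. Hbb-bs, beta globin, was 23.5-fold higher than in scratch-negative, with 98.3% of its UMIs in 1 cell.

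The lowest ratios against control belonged to genes also low in scratch-negative. Cebpz stood at 271, 139 and 106 CPM in S100-rich members (2.57-fold lower in scratch-positive), Vps37b at 143, 74.9 and 54.3 (2.64-fold) and Bmx at 138, 83.0 and 63.2 (2.18-fold). Hcst, the signalling adaptor DAP10, stood at 345, 227 and 139 CPM, 2.48-fold lower than in control and 1.63-fold lower than in scratch-negative. Cox17, a copper chaperone of cytochrome oxidase, stood at 196, 141 and 91.0 CPM, 1.55-fold lower than in scratch-negative. Rassf3, Cwc25, Selenon, Olfm4, St3gal5 and Tmcc1 completed the 10 lowest against control over all members. Among the lowest against scratch-negative over all members were Igkc, Hcst, Fmo5, Tmcc1, S100a8, Wfdc21, St3gal5, Acpp and Cox17. Of those, Igkc, Hcst and Cox17 were past the fold among S100-rich members. S100a8 was used to choose the cells.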

How the data were processed

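The authors deposited raw counts of UMIs per gene and barcode. Per the file headers the software was Cell Ranger 6.1.2. The submitters' processing notes name mm10. The 31053 genes were matched by ID to GENCODE annotation of GRCm38 (31011 found). Symbols shared by more than 1 gene (35) were left out of lists. The libraries held 100089008, 167623741 and 395654008 UMIs. Everything else was computed here with scanpy 1.11.5, matplotlib 3.10.9, scipy 1.17.1, numpy 2.4.6 and pandas 2.3.3 under Python 3.11.15. Counts were summed over the members of a library. Levels and ratios carry exact Poisson and conditional binomial 95% intervals, shares Clopper-Pearson intervals. Doublets were left in: Scrublet's own threshold marked 1, 0 and 581 barcodes, and such low numbers in control and scratch-negative mean that the caller did not work there, so removal of the highest scores (0.8% per 1000 barcodes) was an alternative. Class sums were fitted with edgeR 4.0.16 (quasi-likelihood, TMM, filterByExpr, Benjamini-Hochberg) in R 4.3.3, with DESeq2 1.42.0 as alternative, and the fit's script was tested on simulated data. Residual degrees of freedom were 4. The members, the gene lists and the comparisons were chosen with earlier results of these data known. Named genes were any gene of the lists and, by rank, the 10 highest and 10 lowest ratios of a pair (at least 50 UMIs in the pair, at least 100 CPM in the higher library, 1.5-fold, and at least 25% of the level in cells with S100a8+S100a9 under 300 CP10K), and the 12 highest and lowest fitted differences called in the same direction in all libraries. One gene that this rule names is not reported here. No protein sequence was used here.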

Additional observations from a re-analysis of the deposited data

Results flagged for a closer look

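Barcodes outside the filter on genes and mitochondrial UMIs were not used above. Of 366 such barcodes in scratch-negative, 146 met the other conditions of the class, or 39.9% (34.8 to 45.1). In control 124 of 913 did, which is 13.6% with an interval of 11.4 to 16. In scratch-positive it was 64 of 401, which is 16% with an interval of 12.5 to 19.9. The share in scratch-negative lay above control beyond counting error. The median of these barcodes was 606 UMIs in scratch-negative, 626.5 in control and 633 in scratch-positive. The difference was not tested across mice. No group held the 4 samples that a check for outlying samples needs.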

How the results depend on the processing

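With 1 library a group, depth and members limit all values between libraries to counting precision. No paired analysis was possible between libraries because each group has 1 library; the class fits, within libraries, had library as a block. The S100a8+S100a9 minimum of 2000 CP10K, its combinations and thinning were chosen after seeing the data. The cause of the moves was not tested. The share of S100a8/S100a9-high cells in control, scratch-negative and scratch-positive was 60.9%, 55.2% and 48.0% with at least 1000 genes, 64.6%, 57.0% and 47.2% with Ngp+Camp of at least 25 CP10K, 52.7%, 46.4% and 40.3% with at least 100, 60.4%, 55.8% and 56.6% with S100a8+S100a9 of at least 2000, and 68.5%, 66.0% and 63.6% after thinning. After Scrublet removal it was 51.7% in scratch-negative and 46.5% in scratch-positive.

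Of genes higher in scratch-negative than in control there were 3544 with at least 10 UMIs, 1219 at 2-fold, 1051 in S100-rich members, 876 in these with equal weight per cell and 1133 in these with the median ratio set to 0. Lower were 714 with equal weight per cell, 729 with equal weight per bin, 811 with at least 10 UMIs, 77 at 2-fold and 693 in S100-rich members with equal weight per cell. Higher in scratch-positive than in control were 1491 in S100-rich members, 1436 in these with equal weight per cell and 1643 in these with the median ratio set to 0, and lower were 2658 with the median ratio set to 0 and 384 at 2-fold. Higher than in scratch-negative were 2458 at 2-fold, and 762, 1006 and 761 in S100-rich members, alone, with equal weight per cell and with the median ratio set to 0. Lower were 1326 with equal weight per bin, 1728 with the median ratio set to 0, 1173 with at least 10 UMIs and 246 at 2-fold. The ratio of Igkc turned in scratch-negative against control, to a log2 value of -0.13 after Scrublet removal and -0.016 in S100-rich members.

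Against Ngp/Camp-low neutrophils the fit without library block counted 44 genes higher and 25 lower, and in S100-rich cells 1141 higher. Leaving out each library gave 199 to 650.0 higher and 125 to 819 lower. Against cycling precursors it counted 119 and 467 without block, and leaving out each library gave 781 to 1336 and 800.0 to 1959. Without scratch-negative the counts fell most. Over all settings, 510 values of named class genes kept their call, 18 lost it and 0 turned. Of values of named genes between libraries 773 stayed past the fold, 65 did not and 2 turned, both of Igkc. Of list medians 425 moved by less than 0.2 on the log2 scale and 121 by more. Of 39 medians, 13 changed sign in some setting, among them the specific granule list in scratch-positive against control (-0.56 to 0.31), and 0 of these 13 were past the fold over all members.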

Other observations

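The counts here are over S100-rich members, where the share of all genes past the fold was 11.1% upward and 5.25% downward in scratch-negative against control, and 17.5% and 17.0% in scratch-positive against control. Of 19 hypoxia and glycolysis genes, 6 were past the fold upward and 1 downward in scratch-negative against control (median log2 ratio 0.24), and 10 upward and 2 downward in scratch-positive (median 0.61). Slc2a1, the glucose transporter GLUT1, stood at 18.7, 33.5 and 42.1 CPM in control, scratch-negative and scratch-positive, and Vegfa, an angiogenic growth factor, at 58.3, 35.9 and 34.3 CPM. The 6 NADPH oxidase genes had 0 past the fold in either direction in both comparisons, with medians of 0.03 and 0.05.

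Dissociation and stress genes were past the fold upward in 6 of 14 in scratch-negative (median 0.50) and in 5 of 13 in scratch-positive (median 0.35). Egr1, an immediate early gene, stood at 5.51, 35.2 and 40.5 CPM. Genes of retention in and release from marrow had 4 of 8 past the fold downward in scratch-positive against control (median -0.60). Cxcr4, the receptor that holds neutrophils in marrow, was among them, at 76.6, 53.8 and 39.8 CPM. Of 16 granulopoietic transcription factors 3 were past the fold upward and 0 downward in scratch-negative against control (median 0.18). They were Irf8, Myc and Klf6, and Klf6, a zinc finger factor, stood at 108, 163 and 162 CPM. In scratch-positive against control 3 of 15 were upward and 4 downward (median 0.26). Of 7 azurophil granule and promyelocyte genes 1 was past the fold upward in scratch-negative, Ms4a3 (11.9, 18.4 and 27.2 CPM). In scratch-positive 2 were upward, Ms4a3 and Serpinb1a (415, 517 and 683 CPM), and 2 downward, Ctsg and Gstm1.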
